A study of Mus musculus with 12 samples.

Results

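The genes described here are imprinted mouse genes outside the Dlk1-Dio3 cluster. They were chosen as 37 named genes with 70 probes on the array, and a gene was kept when, in 1 group or more, no array had its brightest probe close to background. Of the 37, 36 were kept, among 17746 of 23791 named genes kept on the whole array. The gene left out was Zim1, a zinc finger gene of the Peg3 locus, which was above background on 1 wild-type array and on no other. Of the kept genes, 34 were well above background on all 12 arrays, so these entered through no single group. The other kept genes, Igf2 and Dcn, met the condition only in induced pluripotent stem cells (iPSC) and were not tested in embryonic stem cells (mESC).

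An imprinted gene is read from the chromosome copy of 1 parent and silenced on the other. The choice is written in the egg or sperm as DNA methylation at an imprinting control region, and in the early embryo it is kept by Zfp57 with Trim28 and by the maintenance methyltransferase Dnmt1. Many imprinted genes act on growth: as background, paternally expressed genes such as Igf2 and Peg3 mostly promote it, and maternally expressed ones such as Cdkn1c, Phlda2, Igf2r and Grb10 mostly restrain it. Cultured pluripotent cells are known to lose or gain these marks. The arrays measured RNA summed over both parental copies, so which copy was read was not measured.

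Total RNA of mouse cells was measured on 12 single-colour arrays, in a study of the T-box transcription factor Tbx3 in the pluripotency network. The mESC came as 4 samples labelled Tbx3-low and 4 labelled Tbx3-high. The iPSC, cells returned to pluripotency by reprogramming, came as 2 samples labelled Tbx3 null and 2 labelled Tbx3 wildtype. The sources used here do not give strain, sex or culture conditions, the way in which Tbx3-low cells were parted from Tbx3-high cells, or the stretch missing from the null allele. Nor do they state if arrays within a group came from separate cultures or clones. The p-values then measure the spread between these samples, which may be technical. That spread was pooled over all 4 groups, so the p-values of each system also carry the spread of the other. A level is log2 of the processed signal minus that array's 75th percentile. A change is a log2 difference between group means with its standard error (SE) from limma, and a gene rose or fell when its adjusted p over all genes tested was under 0.05.

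The labels were first checked on Tbx3 itself, which has 1 probe. Its level was 5.72 to 5.77 on the Tbx3-low and 7.04 to 7.12 on the Tbx3-high arrays, a rise of 1.33 ± 0.07 (SE, adjusted p = 1.87e-07). On the arrays labelled Tbx3-null it was 5.52 and 5.49, against 5.01 and 5.37 on the wild-type arrays, so Tbx3 signal was not lower under the null label. That change was 0.32 ± 0.10 (adjusted p = 0.0339), and it did not pass without null replicate 1 (adjusted p = 0.124), without null replicate 2 (0.0866) or without wild-type replicate 1 (0.269). The probe goes against the null label, or lies outside the part the allele lacks, in which case it checks nothing. Every direction below that comes from the iPSC is therefore a direction between the arrays labelled Tbx3-null and the arrays labelled wild type.

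The 75th percentile of the signal was 312.5 to 457.3 on the mESC and 696.3 to 997.2 on the iPSC arrays. Spots well above background made up 55.9% to 64.8% on the mESC arrays, 63.0% and 62.4% under the null label and 68.6% and 68.0% on the wild-type arrays. No spot was saturated: each array had 0. All 10 of 10 pluripotency markers were well above background in each of the 4 groups; 4 of them rose and 2 fell in Tbx3-high mESC, and 1 rose and 9 did not pass under the null label. The slides of mESC and iPSC were different ones, so levels were not tested across them, and cell kind and slide cannot be told apart. Within each slide the groups also lay in different columns, and column and group cannot be told apart.

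In Tbx3-high mESC, the growth-restraining RNA H19 fell 9.75-fold, and Cdkn1c, Phlda2 and Usp29 fell 2.08 to 2.53-fold. Plagl1, which encodes the zinc finger factor Zac1, rose 2.30-fold, and Ddc, an aromatic amino acid decarboxylase, rose 1.87-fold. Among the 34 genes tested, 11 rose, where 19.9% of all 15736 genes tested rose. A further 8 fell, where 15.2% of all genes fell, and 15 did not pass. The median change of the 34 was 0.15, with a range from -3.29 to 1.2, beside a median of 0.042 over all genes tested. The share that rose lay above that of all genes, and the share that fell lay slightly above it. Neither share was tested.

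On the iPSC arrays labelled Tbx3-null, the zinc finger gene Peg3 was 10.2-fold higher than on the wild-type arrays. Grb10 was 7.05-fold and Phlda2 6.43-fold higher, and Plagl1 was 3.57-fold and Ddc 3.23-fold lower. Of 36 genes tested, 13 rose, against 21.3% of all 17583 genes tested, and 6 fell, against 16.8% of all. The other 17 did not pass. The share that rose lay above that of all genes and the share that fell lay near it. The median of the 36 changes was 0.18, beside 0.058 over all genes.

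**Figure D1:**
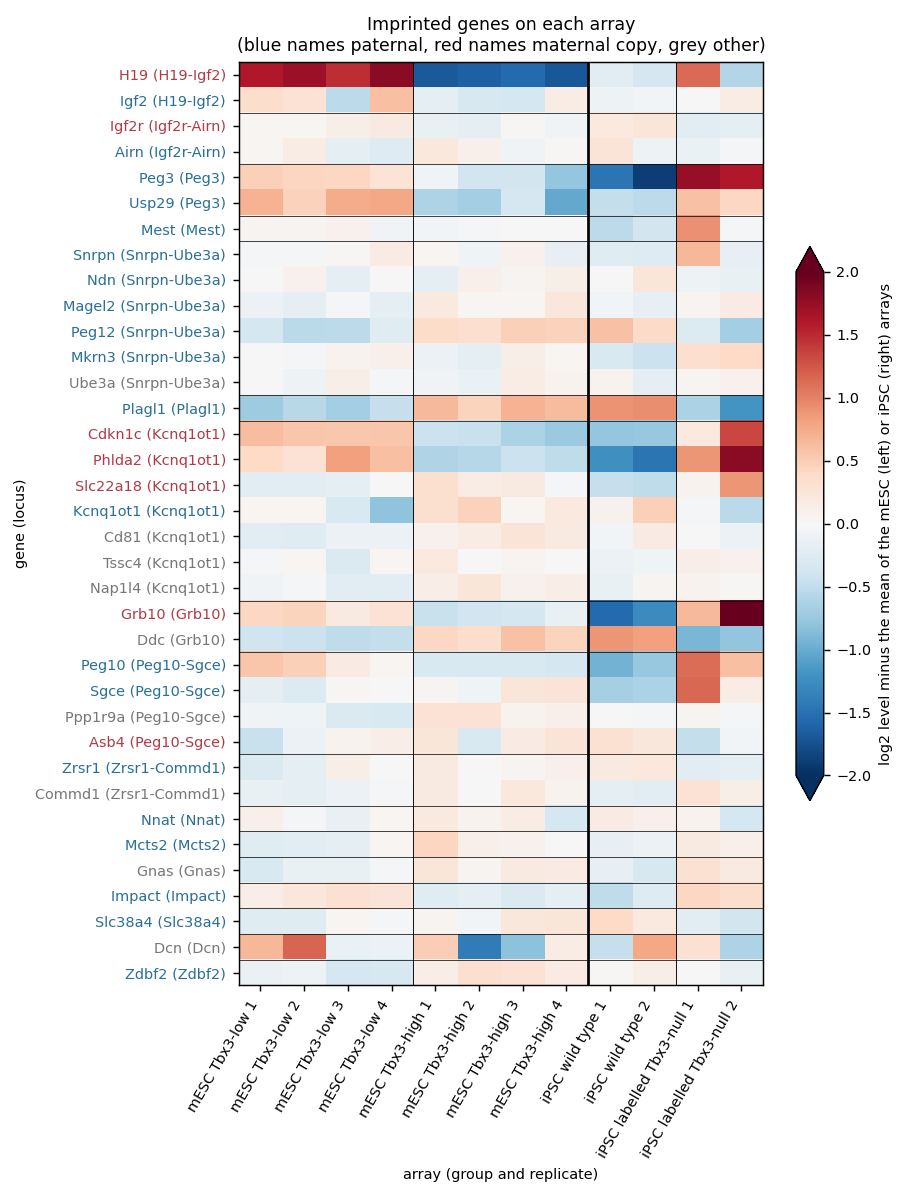
Level of each of the 36 kept genes on each of the 12 arrays, in log2 units relative to the mean of the 8 mESC arrays (left) or the 4 iPSC arrays (right), with genes in rows by locus. H19 separates the mESC groups most widely, and Peg3, Phlda2 and Grb10 separate the iPSC groups; Igf2 and Dcn were mostly not well above background in mESC.

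At the H19-Igf2 locus, H19 is a maternally expressed non-coding RNA that shares enhancers with the paternally expressed growth factor gene Igf2. H19 has 7 probes, and 3 are shown because they mark the ends of the measured stretch and its steepest change. They lie on the minus strand of mm9 at chr7:149762417-149762476, chr7:149761693-149761752 and chr7:149761492-149761551, in 5′ to 3′ order along the transcript.
H19 probe at 0 bases: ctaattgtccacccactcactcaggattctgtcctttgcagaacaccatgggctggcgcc
H19 probe at 724 bases: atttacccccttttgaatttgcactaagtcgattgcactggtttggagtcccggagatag
H19 probe at 925 bases: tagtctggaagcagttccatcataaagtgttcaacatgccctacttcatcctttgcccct

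The brightest probe, at 925 bases, read 1.73, 1.84, 1.60 and 1.93 on the Tbx3-low arrays. It read -1.55, -1.5, -1.43 and -1.57 on the Tbx3-high arrays. The groups did not overlap, and each was tight compared with the gap between them. The change was -3.29 ± 0.27 (SE, adjusted p = 3.69e-06). In RNA from many cells, fewer cells with a transcript and less transcript per cell cannot be told apart. The other 5 probes well above background on every Tbx3-low array fell too, with changes from -3.68 to -2.76. The probe at 304 bases was well above background on 1 of 4 Tbx3-high arrays and the probe at 460 bases on 3 of 4. The most 5′ probe was well above background on 0 of the 8 mESC arrays.

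In the iPSC the H19 values split within 1 group. H19 read 1.84 and 0.11 on the arrays labelled Tbx3-null and 0.49 and 0.36 on the wild-type arrays. The null arrays thus lay on both sides of the wild-type arrays, and the change of 0.55 ± 0.40 did not pass (adjusted p = 0.315). Without null replicate 2 the change was 1.42 (adjusted p = 7.80e-05), and without null replicate 1 it was -0.31 (0.123). The 5 further probes at 244 to 724 bases changed by 0.41 to 0.77, none passed, and at each of them null replicate 1 was likewise the higher null array. The most 5′ probe was well above background on both wild-type arrays and on neither null array, with a change of -0.77 ± 0.51 (adjusted p = 0.311).

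**Figure D2:**
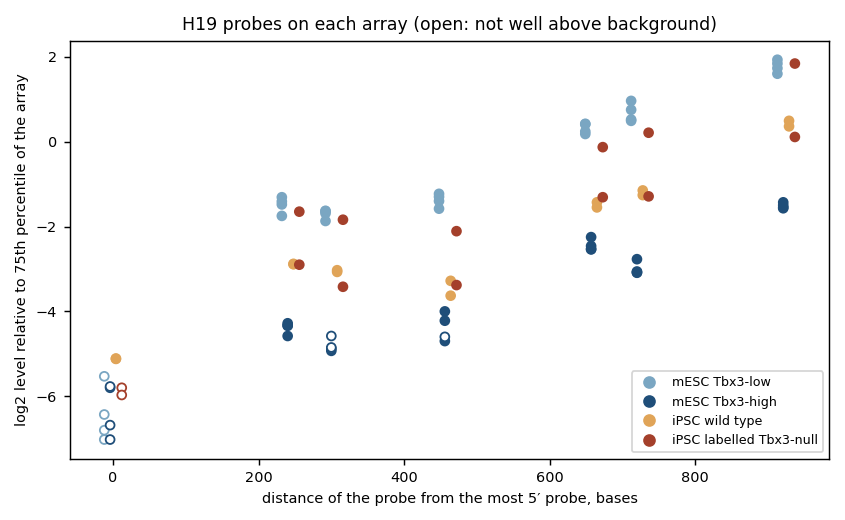
H19 level on each array (log2 relative to the array's 75th percentile) against the distance of the probe from the most 5′ probe in bases; heights of different probes cannot be compared with each other. At the 6 probes from 244 bases on, all Tbx3-low points lie above all Tbx3-high points, and the null-labelled points lie apart from each other.

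Igf2 itself was near the limit of detection in mESC. It read -4.94, -5.01, -5.82 and -4.69 on the Tbx3-low arrays, of which 1 was well above background, and -5.48, -5.62, -5.64 and -5.15 on the Tbx3-high arrays, of which 0 were. On the iPSC arrays it was well above background throughout, at -4.74 and -4.60 under the null label and -4.84 and -4.80 in the wild type. The change there was 0.15 ± 0.30 (adjusted p = 0.739). Beside the fall of H19 in Tbx3-high mESC, a change of Igf2 there was not measurable on these arrays.

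Igf2r, the maternally expressed receptor that carries Igf2 to the lysosome, moved little. It read 2.23, 2.24, 2.31 and 2.38 on the Tbx3-low and 2.05, 2.0, 2.21 and 2.13 on the Tbx3-high arrays. The fall of 0.19 (SE 0.06, adjusted p = 0.0362) did not pass in either slide row alone (0.112 and 0.177), nor without Tbx3-low replicate 3 (0.0771) or 4 (0.0992), nor without Tbx3-high replicate 1 (0.0840), 2 (0.0997) or 4 (0.0585). In the iPSC, Igf2r read 1.92 and 1.95 under the null label and 2.35 and 2.39 in the wild type, a change of -0.43 ± 0.09 (adjusted p = 0.00312).

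Airn, the paternally expressed antisense RNA that silences the paternal copy of Igf2r, gave different answers at its 2 measured probes. They lie 63294 bases apart on the plus strand of mm9, at chr17:12944784-12944843 and chr17:13008078-13008137, and are shown because they disagree.
Airn 5′-ward probe: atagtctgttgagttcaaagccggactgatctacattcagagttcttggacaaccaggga
Airn 3′-ward probe: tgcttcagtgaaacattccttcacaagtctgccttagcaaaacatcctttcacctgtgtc

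The 3′-ward probe, the brighter of them, read -0.51, -0.40, -0.72 and -0.80 on the Tbx3-low and -0.33, -0.45, -0.62 and -0.52 on the Tbx3-high arrays. It read -0.83 and -0.72 under the null label and -0.45 and -0.81 in the wild type. Neither comparison passed there, with changes of 0.12 ± 0.11 (adjusted p = 0.418) and -0.14 ± 0.16 (adjusted p = 0.527). The 5′-ward probe read -1.51 to -0.70 on the Tbx3-low and -2.13 to -1.59 on the Tbx3-high arrays, -2.97 and -2.67 under the null label and -1.60 and -1.25 in the wild type, with no overlap in either system. It fell in both, by 0.78 in mESC (SE 0.19, adjusted p over probes 0.0124) and by 1.40 in iPSC (SE 0.28, adjusted p over probes 0.00448). Igf2r and the 5′-ward Airn probe thus moved in the same direction in both comparisons. The remaining Airn probes were not well above background on any array.

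The Kcnq1ot1 domain joins growth-restraining genes that are silenced on the paternal copy by the antisense RNA Kcnq1ot1. Cdkn1c, which encodes the cell cycle inhibitor p57, read 0.32, 0.26, 0.24 and 0.27 on the Tbx3-low and -0.72, -0.74, -0.92 and -1.04 on the Tbx3-high arrays. It read 0.26 and 1.39 under the null label and -0.71 and -0.70 in the wild type. Groups did not overlap in either system. Cdkn1c fell by 1.13 in Tbx3-high mESC (SE 0.19, adjusted p = 0.000634), though not in slide row 1 alone (adjusted p = 0.0567). It rose by 1.53 ± 0.27 under the null label (adjusted p = 0.00134), and by 0.97 without null replicate 2 (adjusted p = 0.000633).

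Phlda2, which limits growth of the placenta, moved in the same directions. It read 1.15, 1.04, 1.58 and 1.35 on the Tbx3-low and 0.15, 0.18, 0.33 and 0.25 on the Tbx3-high arrays. It read 1.85 and 2.78 under the null label and -0.25 and -0.49 in the wild type. Every Tbx3-low array lay above every Tbx3-high array, and both null arrays above both wild-type arrays. The changes were -1.06 ± 0.18 (adjusted p = 0.000766) and 2.68 ± 0.26 (adjusted p = 2.26e-05).

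Slc22a18, a transporter gene of the domain, read -0.47, -0.49, -0.44 and -0.25 on the Tbx3-low and 0.06, -0.11, -0.08 and -0.28 on the Tbx3-high arrays, and these groups overlapped. It read -0.22 and 0.59 under the null label and -0.76 and -0.80 in the wild type. It passed in the iPSC, with 0.97 ± 0.21 (adjusted p = 0.005), or 0.56 without null replicate 2 (adjusted p = 0.0179). In mESC the change was 0.31 ± 0.15 (adjusted p = 0.13).

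Kcnq1ot1 read -0.47, -0.47, -0.81 and -1.32 on the Tbx3-low and -0.19, -0.05, -0.47 and -0.32 on the Tbx3-high arrays. It read -0.39 and -0.90 under the null label and -0.27 and 0.12 in the wild type. The changes of 0.51 ± 0.19 (adjusted p = 0.0621) and -0.57 ± 0.29 (adjusted p = 0.144) did not pass, so Kcnq1ot1 was not shown to change beside Cdkn1c and Phlda2, which does not show that it stayed the same. The mESC change passed with slide row as a block (adjusted p = 0.0206), without Tbx3-low replicate 1 (0.044) and without Tbx3-low replicate 2 (0.0455). At the edge of the domain, the tetraspanin gene Cd81 rose by 0.34 ± 0.07 in Tbx3-high mESC (adjusted p = 0.00249), but not in either slide row alone (0.055 and 0.0574). The histone chaperone gene Nap1l4 rose by 0.29 ± 0.07 (adjusted p = 0.00784), while its second probe changed by 0.07. Tssc4 passed in neither system, with 0.12 and 0.22.

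At the Grb10 locus, Grb10 encodes an adaptor that dampens insulin receptor signalling and is maternally expressed in most tissues. It read -1.23, -1.21, -1.47 and -1.37 on the Tbx3-low and -2.10, -2.03, -2.0 and -1.80 on the Tbx3-high arrays. It read -1.19 and 0.32 under the null label and -3.39 and -3.11 in the wild type. No groups overlapped. The mESC change of -0.66 ± 0.24 missed the threshold (adjusted p = 0.055) but passed when the mESC arrays were fitted alone (adjusted p = 0.000431). The first SE pools all 4 groups, with a standard deviation of 0.12 and 0.13 in the mESC groups and 1.07 under the null label. The iPSC change was 2.82 ± 0.36 (adjusted p = 0.000155), across null arrays that lay 1.52 apart.

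The neighbour Ddc, paternally expressed in some tissues, moved the other way. It read 2.0, 1.96, 1.89 and 1.91 on the Tbx3-low and 2.81, 2.75, 2.98 and 2.84 on the Tbx3-high arrays. It read 1.66 and 1.79 under the null label and 3.45 and 3.39 in the wild type. The groups lay apart by more than their own spread in both systems. Ddc changed by 0.90 ± 0.07 (adjusted p = 1.47e-06) and by -1.69 ± 0.09 (adjusted p = 3.38e-07), and its second probe by 1.42 and -2.52.

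**Figure D3:**
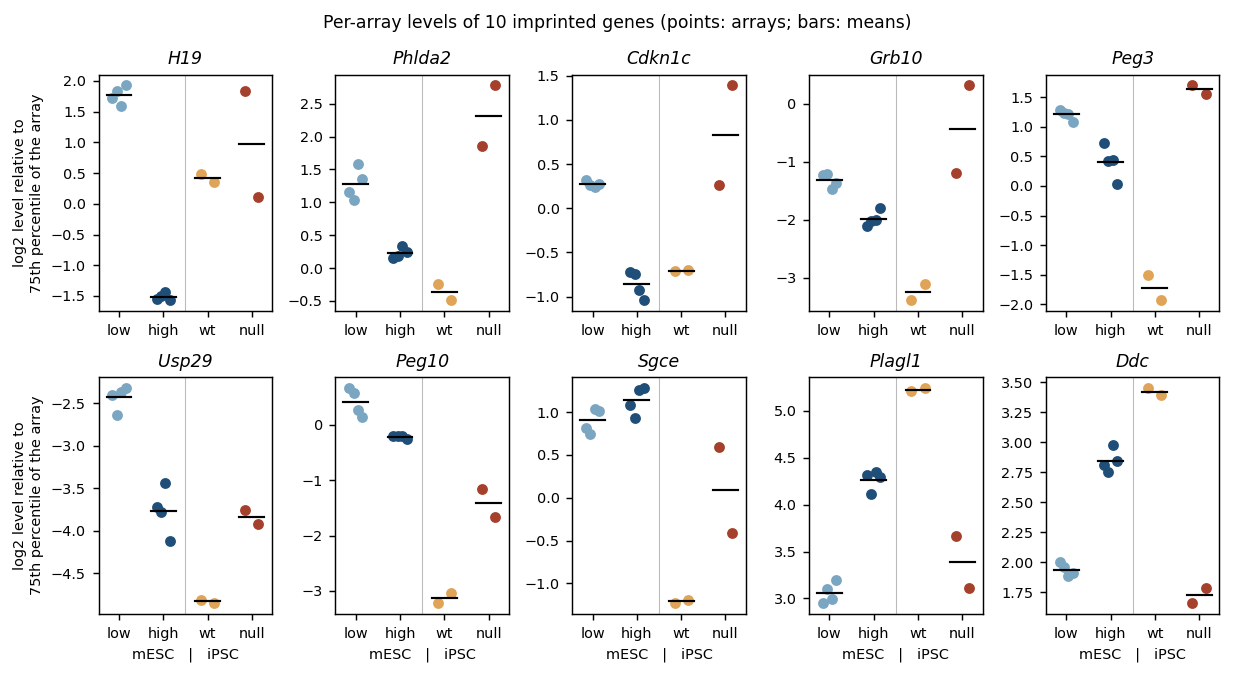
Level of 10 genes on each array (log2 relative to the array's 75th percentile); points are arrays, bars are group means, and mESC and iPSC stand on separate slides. Phlda2, Cdkn1c, Peg3, Usp29 and Peg10 are lower in Tbx3-high mESC and higher under the null label, and Plagl1 and Ddc show the reverse.

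The Peg3 locus gave the highest rise under the null label. Peg3 read 1.29, 1.24, 1.22 and 1.08 on the Tbx3-low and 0.72, 0.42, 0.44 and 0.04 on the Tbx3-high arrays. It read 1.70 and 1.56 under the null label and -1.51 and -1.93 in the wild type. The gap between the null and wild-type arrays exceeded the gap within either pair. Peg3 fell by 0.81 in Tbx3-high mESC (SE 0.14, adjusted p = 0.000746) and rose by 3.35 ± 0.20 under the null label (adjusted p = 6.37e-07). Its second probe changed by -0.95 and 3.65.

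Usp29, a ubiquitin-specific protease gene that shares the paternal promoter region of Peg3, read -2.40, -2.64, -2.36 and -2.32 on the Tbx3-low and -3.72, -3.78, -3.44 and -4.12 on the Tbx3-high arrays. It read -3.75 and -3.92 under the null label and -4.81 and -4.85 in the wild type. Both separations exceeded the spread within groups. Usp29 fell by 1.34 (SE 0.13, adjusted p = 1.12e-05) and rose by 0.99 ± 0.19 (adjusted p = 0.00181). These sizes depend on how background is treated: with normexp they were -0.53 and 0.58, and in the authors' deposited table of log2 values -0.73 and 0.53.

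At the Peg10-Sgce locus, Peg10 is a retrotransposon-derived gene needed for the placenta, and Sgce encodes epsilon-sarcoglycan. Both are paternally expressed from a shared control region. Peg10 read 0.66, 0.58, 0.27 and 0.14 on the Tbx3-low and -0.20, -0.20, -0.21 and -0.25 on the Tbx3-high arrays. It read -1.16 and -1.67 under the null label and -3.22 and -3.03 in the wild type. Peg10 fell by 0.62 in Tbx3-high mESC (SE 0.13, adjusted p = 0.00352), though not in slide row 2 alone (0.121), and rose by 1.71 ± 0.19 under the null label (adjusted p = 6.47e-05).

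Sgce read 0.82, 0.75, 1.04 and 1.01 on the Tbx3-low and 1.08, 0.93, 1.26 and 1.28 on the Tbx3-high arrays, which overlapped. It read 0.59 and -0.41 under the null label and -1.23 and -1.19 in the wild type. Sgce rose under the null label, by 1.30 ± 0.26 (adjusted p = 0.00277), and by 0.80 without null replicate 1 (adjusted p = 0.00778). In mESC, where Peg10 fell, Sgce changed by 0.23 ± 0.18 (adjusted p = 0.354). Of the other genes of the locus, the neurabin gene Ppp1r9a rose by 0.37 ± 0.08 in Tbx3-high mESC (adjusted p = 0.00416). Asb4, an ankyrin repeat and SOCS box gene, passed in neither system at its brightest probe, and its second probe rose by 0.62 in mESC (adjusted p over probes 0.00803).

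Plagl1, a paternally expressed growth regulator, has 4 probes on the plus strand of chromosome 10. The brightest read 2.95, 3.1, 2.99 and 3.20 on the Tbx3-low and 4.31, 4.11, 4.35 and 4.29 on the Tbx3-high arrays. It read 3.67 and 3.11 under the null label and 5.21 and 5.24 in the wild type. The groups stood well apart in both systems, with changes of 1.2 ± 0.11 (adjusted p = 9.24e-06) and -1.84 ± 0.16 (adjusted p = 1.15e-05). The second brightest probe changed alike, by 1.29 and -1.78. These probes, at chr10:12850832-12850891 and chr10:12851280-12851339 of mm9, are not independent in sequence: they share a run of 26 bases, shown here in capitals.
Plagl1 shared run: ATCTCCTAACCTTTGATGACTCTGTA

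The remaining Plagl1 probes changed less, by 0.36 and 0.53 in mESC, where both passed, and by -0.71 and -0.23 in iPSC, where the first passed (adjusted p over probes 0.0113) and the other did not (0.428). Averaged over its probes, Plagl1 changed by -1.14 in iPSC.

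In the Snrpn-Ube3a domain the paternally expressed genes did not move together. Snrpn, which encodes the splicing protein SmN, read 3.88, 3.90, 3.95 and 4.09 on the Tbx3-low and 3.97, 3.84, 4.01 and 3.76 on the Tbx3-high arrays. It read 3.29 and 2.45 under the null label and 2.38 and 2.36 in the wild type. The change of -0.06 ± 0.15 in mESC (adjusted p = 0.791) and of 0.50 ± 0.21 in iPSC (adjusted p = 0.0908) did not pass. Without null replicate 2 the iPSC change was 0.92 (adjusted p = 0.000679), and without null replicate 1 it was 0.08. A more 3′ Snrpn probe, 4904 bases from the nearest other one, fell by 1.96 in iPSC (SE 0.22, adjusted p over probes 0.000106), while the third probe changed by 0.42, so its probes disagree in direction.

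Peg12, a FRAT-family gene of Wnt signalling, rose by 0.82 ± 0.10 in Tbx3-high mESC (adjusted p = 7.63e-05) and fell by 0.96 under the null label (SE 0.15, adjusted p = 0.000477). Its second probe rose by 0.87 in mESC, but its iPSC change of -0.4 did not pass (adjusted p over probes 0.305). The RING finger gene Mkrn3 rose by 0.74 ± 0.11 in the iPSC comparison (adjusted p = 0.000399). Magel2, of the MAGE family, rose by 0.26 ± 0.07 in mESC (adjusted p = 0.0142), but not in either slide row alone (0.0891 and 0.169). Ndn, also of the MAGE family, passed in neither system. The ubiquitin ligase gene Ube3a, imprinted in neurons, read 0.27, 0.17, 0.39 and 0.23 on the Tbx3-low and 0.19, 0.13, 0.42 and 0.33 on the Tbx3-high arrays. It read 0.22 and 0.26 under the null label and 0.24 and -0.03 in the wild type. These groups overlapped, and the Ube3a changes were 0.00 ± 0.09 (adjusted p = 0.976) and 0.14 ± 0.12 (adjusted p = 0.404).

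Among genes that stand alone in their locus, Impact, an inhibitor of Gcn2 activation, fell by 0.46 in Tbx3-high mESC (SE 0.07, adjusted p = 0.000315) and rose by 0.77 ± 0.10 under the null label (adjusted p = 0.000124). Its second probe moved the same way, by -0.44 and 1.14. Mest, a hydrolase-fold gene active in mesoderm, rose by 0.89 ± 0.22 in the iPSC comparison (adjusted p = 0.00962). When the iPSC arrays were fitted alone, it did not pass (adjusted p = 0.0743). The Mest rise was 0.42 without null replicate 1 (adjusted p = 0.0137), 1.35 without null replicate 2 (1.80e-05), and did not pass without wild-type replicate 1 (0.0658). Zdbf2 rose by 0.45 ± 0.08 in mESC (adjusted p = 0.00104), though not in slide row 1 alone (0.0623).

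Gnas, which encodes the stimulatory G protein alpha subunit, rose in both comparisons, by 0.32 ± 0.07 (adjusted p = 0.00564) and 0.49 ± 0.10 (adjusted p = 0.00391). Neither rise passed when its probes were averaged (0.495 and 0.0717), and a probe for another transcript changed by -0.11 in mESC and 1.19 in iPSC. In mESC, Gnas also did not pass in either slide row alone (0.0559 and 0.0988). The copper-balance gene Commd1 rose in both too, by 0.24 ± 0.07 (adjusted p = 0.0183) and 0.41 ± 0.09 (adjusted p = 0.00577). In mESC it did not pass with normexp background (0.0531) or in either slide row alone (0.123 and 0.165). In iPSC it did not pass when the iPSC arrays were fitted alone (0.0558). The mESC rise of Commd1 did not pass without Tbx3-low replicate 2 (0.0518) or Tbx3-high replicate 3 (0.0537), nor the iPSC rise without null replicate 1 (0.0514).

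Zrsr1, a retroposed splicing gene within Commd1, fell by 0.40 under the null label (SE 0.12, adjusted p = 0.0239), a call lost on leaving out null replicate 1 (0.1) or 2 (0.0666) or wild-type replicate 1 (0.0778) or 2 (0.0945). In mESC its change of 0.17 passed only without Tbx3-low replicate 3 (adjusted p = 0.041). The amino acid transporter gene Slc38a4 fell by 0.59 under the null label (SE 0.14, adjusted p = 0.0071), a call lost without wild-type replicate 1 (0.0637). Its mESC change of 0.23 passed without Tbx3-high replicate 2 (0.0448). Mcts2 is a retrogene copy of Mcts1, and whether RNA of Mcts1 reaches its probe was not tested. Mcts2 rose by 0.30 ± 0.10 in mESC (adjusted p = 0.0361), a call lost on leaving out any of Tbx3-low replicates 1 to 3 (0.0895, 0.0845 and 0.0815) or Tbx3-high replicate 1 (0.0793) or 2 (0.0536). Nnat, which encodes neuronatin, and Dcn, which encodes the matrix proteoglycan decorin, passed in no comparison in which they were tested.

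**Figure D4:**
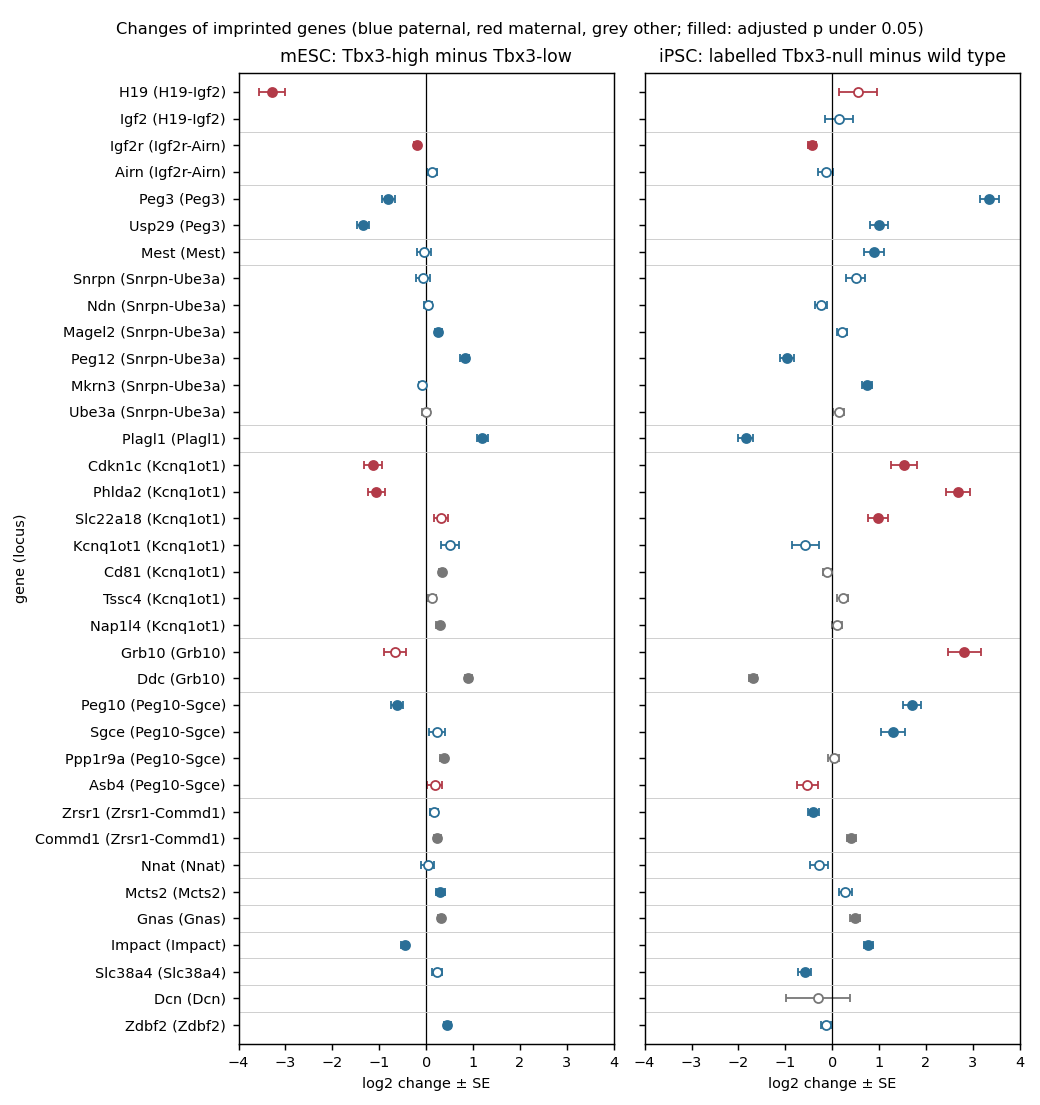
Log2 change ± SE of each kept gene in mESC (Tbx3-high minus Tbx3-low, left) and iPSC (labelled Tbx3-null minus wild type, right), with genes in rows by locus; filled points have an adjusted p under 0.05. H19 has the lowest change in mESC at -3.29, and Peg3 the highest in iPSC at 3.35.

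Grouped by the copy that is read, the genes were counted in each system, without a test of the groups. Some of them share a locus, such as Cdkn1c, Phlda2 and Slc22a18 of the Kcnq1ot1 domain, so they are not separate observations. In mESC, 19.9% of all genes rose and 15.2% fell. Of 7 maternally expressed genes tested in mESC, 4 fell (H19, Cdkn1c, Phlda2 and Igf2r) and 3 did not pass, with a median change of -0.66. The 3 were Grb10, with -0.66, and Asb4 and Slc22a18, with 0.18 and 0.31. Of 19 paternally expressed genes, 5 rose and 4 fell, shares slightly above those of all genes, with a median of 0.12. Of 8 genes imprinted in some tissues or with several transcripts, 6 rose and 2 did not pass, with a median of 0.31 and changes from 0.00 to 0.90.

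In the iPSC, where 21.3% of all genes rose and 16.8% fell, 4 of the 7 maternally expressed genes rose (Cdkn1c, Phlda2, Slc22a18 and Grb10) and 1 fell (Igf2r), with a median of 0.97. Among 20 paternally expressed genes, 7 rose and 4 fell, with a median of 0.18, and without wild-type replicate 1 the count that fell was 2. Of the 9 others, 2 rose and 1 fell, with a median of 0.10. The share of paternally expressed genes that fell lay near that of all genes.

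Set side by side, 6 genes fell in Tbx3-high mESC and rose under the null label: Cdkn1c, Phlda2, Peg3, Usp29, Peg10 and Impact. That combination was met by 6.44% of the 15573 genes tested in both systems. The reverse was met by 3 genes, Plagl1, Ddc and Peg12, and by 6.75% of all genes. Commd1 and Gnas rose in both, which 3.34% of all genes did, and Igf2r fell in both, which 2.41% did. The remaining 22 of the 34 genes tested in both passed in 1 system or in none, H19 among them.

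Whether the effects differed was tested as the change in Tbx3-high mESC minus the change from the null label to the wild type. This difference passed for 18 of 36 genes, where it passed for 33.4% of all 17746 genes. It was -2.73 ± 0.49 for H19 (adjusted p = 0.00195), 2.54 ± 0.24 for Peg3 (3.61e-05), 2.15 ± 0.44 for Grb10 (0.00415) and 1.63 ± 0.32 for Phlda2 (0.00328). These values take the iPSC labels as given, which the Tbx3 probe does not bear out. With the iPSC labels turned, a setting chosen after seeing the data, the difference passed for 19 of 36 genes, against 39.4% of all genes. It then was -4.16 for Peg3, -3.84 for H19, -3.74 for Phlda2, -3.48 for Grb10, 2.6 for Ddc and 3.04 for Plagl1. Of the 10 genes that passed both ways, 9 changed sign, and H19 kept its sign. Under the labels as given, for Peg3, Phlda2, Peg10, Plagl1 and Ddc the 2 effects pointed the same way with regard to the Tbx3 labels, and the iPSC effect was the larger. For Cdkn1c, Usp29, Impact and Peg12, which also passed in both systems, the difference did not pass (0.40 ± 0.33, -0.34 ± 0.23, 0.31 ± 0.12 and -0.14 ± 0.18), and with the labels turned it did (-2.66, -2.33, -1.23 and 1.79). Of all genes with a passing difference, 57.7% were positive here, and 47.5% in the authors' deposited table of log2 values.

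The arrays labelled Tbx3-null differed from each other in these genes. They lay more than 0.5 apart for 12 of 36 genes, against 8.22% of 17581 genes tested. The wild-type arrays lay that far apart for 1 of 36, Dcn, against 6.36% of all genes. The gap of 0.5 was chosen after the values were seen, and no test was made. Of the 20 paternally expressed genes, 15 read higher on null replicate 1, and of the 7 maternally expressed genes, 6 read higher on null replicate 2. Of all genes, 57.4% read higher on null replicate 1, and many of these gaps were small. Among the paternally expressed genes, 6 were more than 0.5 higher on null replicate 1 (Sgce by 1.0, Mest by 0.93, Snrpn by 0.85, Plagl1 by 0.56, Peg10 by 0.52 and Kcnq1ot1 by 0.51) and 0 on null replicate 2. Of the maternally expressed genes, 4 were more than 0.5 higher on null replicate 2: Grb10 by 1.52, Cdkn1c by 1.13, Phlda2 by 0.93 and Slc22a18 by 0.82. H19 was the exception, 1.73 higher on null replicate 1. Dcn, by 0.93 higher on null replicate 1, completes the 12. Cdkn1c, Phlda2 and Slc22a18 lie in the Kcnq1ot1 domain, and Sgce and Peg10 share a control region. These genes are therefore not separate observations.

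**Figure D5:**
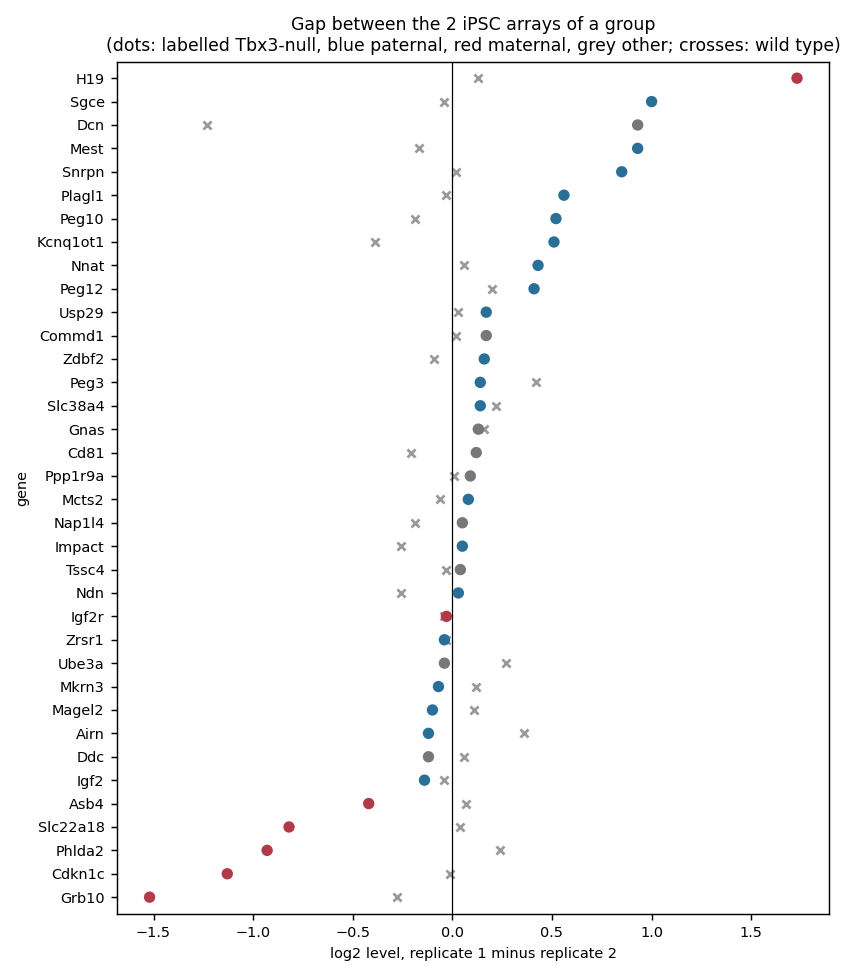
Gap between replicate 1 and replicate 2 in log2 level for each gene, for the 2 arrays labelled Tbx3-null (dots, blue paternal, red maternal and grey other copies) and the 2 wild-type arrays (crosses). Under the null label the gaps run from -1.52 (Grb10) to 1.73 (H19), with most maternally expressed genes at the low end and paternally expressed genes above 0.5 at the high end.

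Of 22 genes that set or keep methylation imprints, 4 rose and 4 fell in Tbx3-high mESC, with a median of -0.03, and 4 rose and 18 did not pass under the null label, with a median of 0.12. The shares that rose lay near those of all genes, 19.9% in mESC and 21.3% in iPSC, as did the share that fell in mESC, 15.2%. Under the null label 0 of the 22 fell, where 16.8% of all genes did, and this was not tested. Zfp57, which binds the methylated copy of control regions, rose by 1.10 ± 0.12 in Tbx3-high mESC (adjusted p = 3.24e-05) and changed by -0.37 ± 0.17 in iPSC (adjusted p = 0.122). Its partner Trim28 changed by -0.03 in mESC and rose by 0.43 ± 0.10 in iPSC (adjusted p = 0.00684). Dnmt1 passed in neither, with -0.06 and 0.30, nor did its cofactor Uhrf1, with 0.18 and 0.10, or the insulator protein gene Ctcf, with 0.07 and -0.05. Dppa3, which protects maternal methylation in the zygote, fell by 3.21 in Tbx3-high mESC (SE 0.08, adjusted p = 8.79e-10) and rose by 3.37 ± 0.12 under the null label (adjusted p = 1.59e-08). The methyltransferase gene Dnmt3b rose by 1.12 ± 0.11 and its germline cofactor Dnmt3l by 1.07 ± 0.10 under the null label (adjusted p = 2.74e-05 and 2.13e-05).

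On the signalling axis of Igf2, 2 of 12 genes rose and 3 fell in Tbx3-high mESC (median -0.01), and 3 of 13 rose and 4 fell under the null label (median -0.08). The shares that rose, where 19.9% and 21.3% of all genes did, were near the background, and those that fell lay above the 15.2% and 16.8% of all genes. The receptor gene Igf1r rose by 0.71 ± 0.10 in Tbx3-high mESC (adjusted p = 0.000155) and fell by 0.40 under the null label (SE 0.14, adjusted p = 0.0397). Igfbp3, which encodes an Igf-binding protein, fell by 1.22 in mESC (SE 0.11, adjusted p = 5.63e-06). Under the null label Hmga2, a chromatin protein gene that acts upstream of Igf2 RNA-binding proteins, fell by 3.17 (SE 0.15, adjusted p = 1.54e-07). The adaptor gene Irs1 rose by 1.11 ± 0.12 there (adjusted p = 5.96e-05).

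Genes next to these loci that were not on the imprinted list rose about as often as all genes did and fell slightly more often. Which copy of them was read was not measured, so they do not serve as a set free of imprinting. Of 49 neighbours tested in mESC, 10 rose and 10 fell (median -0.03), and of 49 in iPSC, 10 rose and 9 fell (median -0.05), beside 19.9% and 15.2% of all genes in mESC and 21.3% and 16.8% in iPSC. In Tbx3-high mESC the flippase gene Atp10a of the Ube3a domain fell by 2.22 (SE 0.18, adjusted p = 3.04e-06), Cobl near Grb10 rose by 1.31 ± 0.07 (1.51e-07), and Mas1 near Igf2r was at least 1.64-fold lower (adjusted p = 0.00182). Under the null label Zfp264, a neighbour of Peg3, fell by 3.15 (SE 0.14, adjusted p = 7.99e-08) where Peg3 and Usp29 rose. The paraoxonase gene Pon3 fell by 1.54 (SE 0.16, adjusted p = 3.53e-05) and Dync1i1 by 1.45 (SE 0.26, adjusted p = 0.00129), where Peg10 and Sgce rose. Slc38a2, an amino acid transporter gene beside Slc38a4, rose by 1.26 ± 0.09 (adjusted p = 2.14e-06). Lum, a neighbour of Dcn that is also on the fibroblast list, was at least 1.5-fold higher (adjusted p = 2.74e-05).

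Markers of other cell types also changed between these groups. Of 8 trophoblast markers tested in mESC, 6 fell and 1 rose in Tbx3-high cells, where 15.2% of all genes fell and 19.9% rose. In iPSC, 3 of 8 rose and 3 fell under the null label, against 21.3% and 16.8% of all genes. The summed level of all 12 listed trophoblast markers, dim ones included, is in multiples of the array's 75th percentile. It was 52.9 to 56.3 on the Tbx3-low and 23.8 to 28.4 on the Tbx3-high arrays. It was 33.3 to 38.2 under the null label and 26.2 to 28.6 in the wild type. Krt18, Gata3, Hand1 and Tfap2c fell most in Tbx3-high mESC, by 1.72, 1.57, 1.54 and 1.40. Under the null label Cdx2 fell by 1.65 and Krt7 by 1.30. Elf5, Plac1 and Tpbpa, which define trophoblast, were not well above background in any group.

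Among fibroblast markers, 3 of 7 rose in Tbx3-high mESC (Pdgfrb, Col1a1 and Pdgfra) and 4 did not pass, where 19.9% of all genes rose. In iPSC, 2 of 9 rose and 3 fell under the null label, against 21.3% and 16.8% of all genes. The same 3 markers fell there, Col1a1 by 2.33 and Pdgfrb by 2.23 on the log2 scale and Pdgfra at least 2.22-fold, while Acta2 rose by 1.15 and Lum as given above. The summed level of all 12 listed fibroblast markers was 2.78 to 2.99 on Tbx3-low, 3.39 to 28.5 on Tbx3-high, 1.39 to 1.41 on null and 2.48 to 2.58 on wild-type arrays. The upper end on Tbx3-high arrays came with 1 array on which Thy1 read 4.75, against a group median of 0.88. Postn and Twist2 were not well above background in any group.

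For the next 2 lists, the shares of all genes were 19.9% risen and 15.2% fallen in mESC, and 21.3% and 16.8% in iPSC. Sums were taken over all 12 listed primitive endoderm and all 10 listed neural markers. Primitive endoderm markers rose for 3 of 9 (Gata6 by 1.49) and fell for 1 in mESC, with sums of 41.0 to 46.2 on Tbx3-low and 40.9 to 52.5 on Tbx3-high arrays. Under the null label 6 of 10 of them fell and 4 did not pass, with sums of 8.24 to 8.66 against 16.1 to 17.4 in the wild type. Afp was at least 2.42-fold lower there, Gata6 fell by 1.91, Lama1 by 1.30 and Cubn by 1.09, and Ttr was not well above background in any group. Of neural markers, 1 of 7 rose and 4 fell in mESC, and 5 of 8 rose and 3 did not pass under the null label, where their sum was 9.06 to 9.62 against 3.96 to 4.23. In mESC the neural sum was 6.63 to 7.18 on Tbx3-low and 5.12 to 6.06 on Tbx3-high arrays. Nes fell by 1.45 and Sox1 rose by 1.33 in Tbx3-high mESC, and Pax6 rose by 3.46, Tubb3 by 1.54 and Map2 by 1.06 under the null label. Neurog2 was not well above background in any group. The part of other cell types in the changes of the imprinted genes was not tested.

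RefSeq promoter windows, 250 bases before to 50 after a start in GRCm38.p6, were found for 30 of the 37 genes, in 49 windows. The letters TGCCGC, the core of the Zfp57 motif, occurred on either strand in 11 of 49 windows (22.4%), against 11.6% of all 32851 windows. They lay in windows of Commd1, Grb10, Igf2, Mcts2, Mest, Nnat, Plagl1, Snrpn, Zdbf2 and Zim1. In Tbx3-high mESC, Commd1, Mcts2, Plagl1 and Zdbf2 of these rose, and Grb10, Mest, Nnat and Snrpn did not pass. Of all genes 19.9% rose there, as did 11 of the 34 imprinted genes tested. The rise was lost in 12 of 20 alternatives for Mcts2, in 5 for Commd1 and in 1 for Zdbf2. Whether the letters bear on these changes was not tested. The T-box letters AGGTGTGA occurred on either strand in 0 of the 49 windows and in 1.28% of all. At so low a share, 49 windows would often hold no match, so the count cannot show that the letters are rarer here. The median number of CpG sites was 14 in these windows and 7 in all. The Zfp57 letters themselves hold a CpG, and their share was not adjusted for this. The Plagl1 window at chr10:13090582-13090881 of GRCm38.p6, plus strand, is shown because Plagl1 and Zfp57 both rose in Tbx3-high mESC. It was thus picked with the changes known. Under the null label Plagl1 fell and Zfp57 did not pass. A link between Zfp57 and Plagl1 was not tested. The window holds 26 CpG sites and 1 match to the Zfp57 letters, in capitals and on the opposite strand.
Plagl1 promoter window: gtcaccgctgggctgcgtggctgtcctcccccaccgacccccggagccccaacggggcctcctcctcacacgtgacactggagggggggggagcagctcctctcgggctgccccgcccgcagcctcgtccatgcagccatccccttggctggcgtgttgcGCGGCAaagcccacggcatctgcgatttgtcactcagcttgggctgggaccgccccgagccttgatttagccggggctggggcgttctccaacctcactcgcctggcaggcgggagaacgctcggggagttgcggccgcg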

How the data were processed

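RNA of 12 mouse samples (mESC: 4 labelled Tbx3-low, 4 Tbx3-high; iPSC: 2 labelled Tbx3 null, 2 wild type) was measured on Agilent single-colour arrays of 55681 probes that are not controls. Per the labels' protocols, RNA was extracted with RNeasy kits and labelled with Cy3. Per the file headers, Agilent Feature Extraction gave the processed signal intensity of each spot, with background and spatial trend removed and no scaling between arrays, placed probes on mm9, and set marks of 0 or 1 (other values) for background, saturation and outliers. The deposited table of the authors holds log2 values, which followed the log2 mean signal (r of at least 0.9988), with column medians of 6.58 to 6.61. The sources used here do not give its scaling or background treatment, so it served as an alternative.

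Levels are log2 of the processed signal, less the 75th percentile of the array. Outlier-marked spots were set to missing and spots of a probe averaged. Each gene was represented by its brightest probe over the 12 arrays, tested when above background throughout 1 or more of the groups compared. Names came from RefSeq (GRCm38.p6): of the probes, 27656 were named through an accession, 3401 through a symbol, 307 through a synonym and 1509 as in the file, and 22808 were left unnamed. limma 3.58.1 (R 4.3.3, data.table version 1.17.8) fitted 4 group means over all 12 arrays with empirical Bayes moderation (8 residual degrees of freedom), with Benjamini-Hochberg adjustment over all genes, threshold 0.05; single probes were adjusted over all probes tested. A fold written "at least" sets the dim group at the lowest signal well above background. Tables and plots used Python 3.11.15, pandas 2.3.3 and matplotlib 3.10.9. The fit was tested on simulated data. Precision is limited by 4 arrays per mESC and 2 per iPSC group.

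The genes and lists were chosen with earlier results of these data known, and list counts carry no test. Values on every array are given for genes that passed with a log2 change of at least 1 in a comparison and for locus partners or control RNAs (H19, Igf2, Igf2r, Airn, Cdkn1c, Kcnq1ot1, Snrpn, Ube3a, Peg10, Sgce, Plagl1 and Grb10). From the lists, genes past 1 in the mESC or iPSC comparison were named, at most 6 a list and comparison (a neighbour gene is not reported here), with Zfp57, Trim28, Dnmt1, Dppa3, Uhrf1, Ctcf and Igf1r always. Alternatives were quantile normalization, normexp background (offset 50), the deposited table, no filter, a floor for dim spots, the mean of probes, a replicate block, array weights, arrays of a cell kind alone, slide row as a block or alone, each array left out and, chosen after seeing the data, the iPSC labels turned in the difference.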

Additional observations from a re-analysis of the deposited data

Results flagged for a closer look

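The effect of the Tbx3 labels differed between mESC and iPSC, by the test of the difference itself, for 18 genes, with the iPSC labels taken as given. With those labels turned, 10 of the 18 passed and 9 of these changed sign. The difference as labelled, (Tbx3-high minus Tbx3-low) minus (wild type minus null label), was 2.54 for Peg3, 2.15 for Grb10, 1.63 for Phlda2, 1.53 for Sgce, 1.27 for Slc22a18 and 1.09 for Peg10. It was 0.83 for Mest, 0.81 for Gnas, 0.66 for Mkrn3, 0.65 for Commd1, 0.58 for Mcts2, 0.47 for Magel2, 0.41 for Ppp1r9a and 0.39 for Nap1l4. It was negative for H19 at -2.73, Ddc at -0.79, Igf2r at -0.63 and Plagl1 at -0.63. For Ddc, Plagl1, Peg3, Phlda2 and Peg10 the effects in mESC and iPSC pointed the same way with regard to the labels, with the iPSC effect larger.

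Some of these calls hang on single arrays or on the processing. The differences of Mest, Ppp1r9a, Nap1l4, Mcts2, Plagl1 and Magel2 did not pass on leaving out at least 1 array. Of 20 alternatives that kept the labels, the call was lost in 15 for Mest, 14 for Ppp1r9a and 10 for Mcts2. It was lost in 9 for Nap1l4, 9 for Plagl1 and 2 for Magel2. With all arrays kept, Mest did not pass with quantile normalization (adjusted p = 0.0766), the deposited table (0.062), no filter (0.0621) or a replicate block (0.076). Nap1l4 reached 0.174 with quantile normalization and Mcts2 0.138 with the deposited table. The difference of Gnas did not pass with the mean of probes (0.319). The difference of Mest was 0.37 without null replicate 1 and 1.30 without null replicate 2, that of Grb10 was 1.40 without null replicate 2, and that of Plagl1 was -0.35 without null replicate 2. That of Cdkn1c, which did not pass, passed without null replicate 1 (adjusted p = 0.00203), that of Snrpn without null replicate 2 (0.00281) and that of Impact without wild-type replicate 2 (0.0189).

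Tssc4, a gene of the Kcnq1ot1 domain, read 2.64 on Tbx3-low replicate 3, far from 2.91, 2.96 and 2.96 on the other arrays of its group. It was 1 of 68 groups of 4 arrays examined, and chance flags about 1 in 20.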

How the results depend on the processing

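With the iPSC labels as given, no result that passed changed sign under any alternative run. Some results that passed in neither run did, such as Snrpn in iPSC (-0.35 with the mean of probes) and H19 in iPSC (-0.31 without null replicate 1). Over single genes, 971 of 1049 results kept their side of the threshold under alternatives other than leaving out single arrays, 58 lost the call and 20 gained it. With an array left out, 801 of 872 kept their side, 62 lost the call and 9 gained it. Results that changed sign without passing are counted among those that kept their side.

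Paternally expressed genes that rose in mESC numbered 3 in place of 5 with normexp background, the deposited table, slide row 1 alone and slide row 2 alone. Maternally expressed genes that rose in mESC numbered 1 in place of 0 with the mean of probes (Asb4) and with mESC arrays alone (Slc22a18), and those that fell numbered 2 in slide row 1 alone. Slide rows 1 and 2 alone gave 5 and 6 imprinted genes risen in mESC in place of 11, and 1947 and 1780 of all genes in place of 3125; each row alone has fewer arrays. The cause of the other moves was not tested.

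Leaving out each array in turn gave 10 to 11 imprinted genes risen and 7 to 8 fallen in mESC, 12 to 15 and 4 to 5 in iPSC, and 10 to 13 and 3 to 4 for the difference. Over all genes it gave 2596 to 2909 risen and 2076 to 2317 fallen in mESC, 2544 to 3446 and 2384 to 2520 in iPSC, and 2387 to 3261 and 2042 to 2417 for the difference. By copy, it gave 4 to 5 paternal risen, 4 to 4 paternal fallen, 0 to 0 maternal risen and 3 to 4 maternal fallen in mESC, and 6 to 8, 2 to 3, 4 to 5 and 1 to 1 in iPSC, where the count of 2 paternal fallen came without wild-type replicate 1.

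With the iPSC labels turned, chosen after seeing the data, 8 imprinted genes had a positive and 11 a negative difference that passed. Signs that turned by this construction belong to values of -4.16 for Peg3, -3.74 for Phlda2, -3.48 for Grb10, -2.66 for Cdkn1c, -2.33 for Peg10, -1.23 for Impact, -1.07 for Sgce, -0.94 for Mest, -0.81 for Mkrn3, -0.66 for Slc22a18, -0.18 for Commd1, -0.17 for Gnas, 0.24 for Igf2r, 0.57 for Zrsr1, 0.82 for Slc38a4, 1.09 for Kcnq1ot1, 1.79 for Peg12, 2.6 for Ddc and 3.04 for Plagl1; those of Slc22a18, Commd1, Gnas and Igf2r did not pass.

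Replicate numbers did not pair the arrays: same-numbered mESC arrays correlated in their deviations at 0.094, 0.123, 0.101 and 0.05, and iPSC arrays at 0.022, and not every array correlated best with its own number. A fit with a replicate block gave the following: 11 imprinted genes rose and 9 fell in mESC, 13 and 5 in iPSC, and 12 and 4 for the difference (over all genes 3169 and 2481, 3539 and 2998, 3073 and 2462).

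The limits are 2 arrays per iPSC group, null arrays that differ from each other, Tbx3 signal that is not lower under the null label, and signal too close to background for Igf2, Dcn and Zim1 in mESC.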
